A study of Homo sapiens with 6 samples.

Results

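Keratins are examined here as the type I and type II intermediate filament genes whose symbol is KRT followed by a number and at most 1 letter. They were 54 of the 35639 genes in the deposited table, after 11 symbols ending in P had been left out as pseudogenes. By the epithelium in which each is best known, 6 were classed as simple epithelial, 22 as stratified, 9 as hair follicle root sheath and 16 as hair keratins. KRT222 was left unclassed, and the hair keratin KRT86 was not analysed here.

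Keratin filaments are built from pairs of a type I and a type II chain, so that epithelial cells usually express the chains in matched partners. KRT8 and KRT18 form the basic pair of simple epithelia, KRT5 and KRT14 that of basal keratinocytes, and the hair keratins harden the hair shaft together with keratin-associated proteins. Cells of mesenchymal origin such as osteoblasts are known for vimentin filaments, although some cultured and virus-transformed mesenchymal lines also make simple epithelial keratins.

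The RNA came from hFOB 1.19, an established line of fetal human osteoblast precursors that divides because it carries a heat-labile viral T antigen. Cells carried a lentiviral vector with a dTomato reporter, either empty (EV) or with HA-tagged histone H3.3, as wild type (WT) or with glycine replaced by tryptophan at residue 34 (G34W). The histone transgene has the Drosophila coding sequence, and its own RNA was not analysed here. Reporter-positive cells were sorted as pools, not clones, and 2 libraries per line were made from poly(A) RNA of cells kept at 34 °C and collected 15 days after transduction. Libraries are written as EV2, WT1, WT2, G34W1 and G34W2. The authors describe replicates in general as separate wells within an experiment. No source used here says so of these duplicates, or that they were separate infections, so the p-values measure only the spread between these libraries, which may be technical. Groups follow the library titles. The genotype entries of the labels swap WT and G34W relative to those titles, so every direction between these lines rests on the titles. EV replicate 1 was left out, because 28688 genes (80.5%) were listed at 0 in it, against 14517 to 16397 genes in the other libraries, so EV2 is the single control library. Values are normalised signal, that is, estimated counts per gene that the authors scaled by library. They summed to between 38821143 and 48024590 per library, and the depth in reads was not estimated.

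The cells were checked against markers before the keratins were read. The 10 osteoblast markers summed to 222485 in EV2, 203848 and 216099 in WT1 and WT2, and 194017 and 264488 in G34W1 and G34W2. COL1A2, a chain of type I collagen, led this sum, followed by SPARC and COL1A1. Markers of osteoblast maturation varied. ALPL was 1216 in G34W1 and 107 to 428 elsewhere, and was the 1 marker of the 10 over 2-fold higher in that library. SPP1 lay between 171 and 649, BGLAP between 4.08 and 44.9 and SP7 between 1.43 and 6.03, and IBSP was listed at 0 in all libraries except EV2 (2.50). BGLAP was 5.55 in EV2, 44.9 and 39.3 in WT1 and WT2, and 4.08 and 27.4 in G34W1 and G34W2. WT thus lay above the other 3 libraries, as it did for 8.34% of the 16259 genes tested below.

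G34W1 stood apart. The 12 pluripotency markers summed to 66576 there, against 1142 in EV2, 985 in WT1, 1073 in WT2 and 964 in G34W2, and 12 of the 12 were over 2-fold higher in G34W1 than in any other library. POU5F1 stood at 19441 in G34W1 and at most 75.4 elsewhere. It was the most abundant of them in G34W1, followed by DNMT3B and TDGF1, whereas DNMT3B led in each other library, at 395 to 541. The 12 epithelial markers summed to 7252 in G34W1, against 547 in EV2, 500 in WT1, 612 in WT2 and 401 in G34W2, and 9 of the 12 were over 2-fold higher in G34W1 than elsewhere. CDH1, which encodes E-cadherin and had the highest mean over the 5 libraries, was 2104 in G34W1 and 39.9 to 64.9 in the other libraries. EPCAM was 2175 against 9.97 to 46.6. Both means rest on G34W1. CLDN4, the next by mean, was 441 in G34W1 and 161 to 405 elsewhere, and was the most abundant of the list in each library except G34W1. No marker of either list was at 0 in all libraries, but OVOL2 was listed at 0 in EV2, WT2 and G34W2, RAB25 at 0 in EV2 and PRDM14 at 0 in EV2. The 10 keratinocyte markers summed to 242, 239, 239, 265 and 195 in EV2, WT1, WT2, G34W1 and G34W2, and 2 of the 10 were over 2-fold higher in G34W1 than elsewhere. These were CASP14, at 113.5 against at most 30.0, and KRTDAP, at 5.12 against 0. TP63 and FLG lay over 2-fold lower in G34W1, at 5.72 against 13.6 to 25.0 and at 6.14 against 35.7 to 53.3 elsewhere. SFN led that list in each library except G34W1, where CASP14 stood above it at 113.5 against 109.5. The cornified envelope genes LORICRIN and SPRR2A were listed at 0 in all 5 libraries. Because of the difference in G34W1, some fold changes are given below with and without it. This choice was made after seeing the data for all but the keratins in G34W against WT. It does not cover every gene that was highest or lowest in G34W1 and had an unadjusted p under 0.05 (limma). EPCAM, CDH1, SALL4 and LIN28B in G34W against WT are not given without it. Nor are PRDM14, NES and DSP in G34W against EV2. In bulk RNA, more cells of a type and more RNA per cell cannot be told apart.

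Of the 54 keratins, 16 were listed at 0 in all 5 libraries and 22 were above 0 but under 10 in every library. The other 16 reached 10 in at least 1 library and are named below. The level was carried by KRT7, KRT8 and KRT18, which made up 96.4% of the summed keratin signal in EV2, 94.5% and 94.8% in WT1 and WT2, and 94.8% and 93.3% in G34W1 and G34W2. The plot of named keratins by library shows this range of levels.

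**Figure D1:**
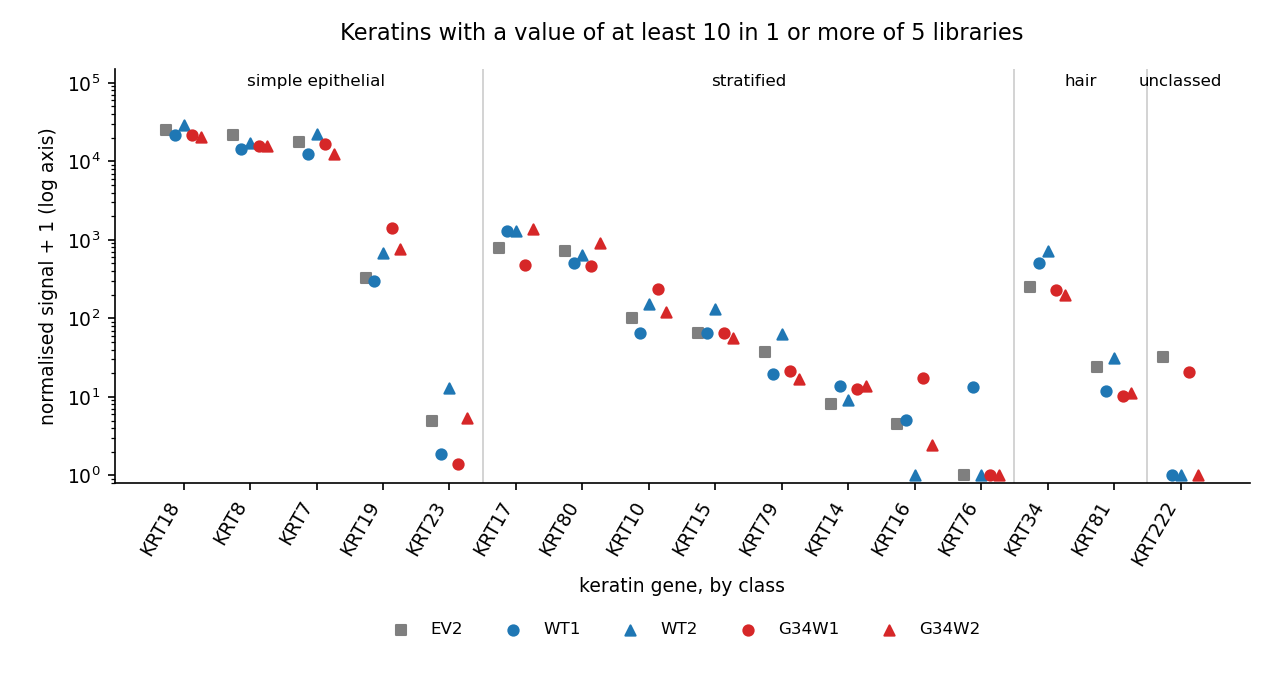
Normalised signal plus 1 (log axis) of the 16 keratins with a value of at least 10 in at least 1 of 5 libraries, grouped by class and ordered by mean level. Each point is 1 library; KRT18, KRT8 and KRT7 lie above 10000 in each, whereas KRT34 is the only hair keratin above 100.

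The simple epithelial class held the most abundant keratins. KRT18, the type I partner of the basic simple pair, was 25085 in EV2, 21377 and 29242 in WT1 and WT2, and 21561 and 20425 in G34W1 and G34W2. KRT8, its type II partner, was 21534 in EV2, 14366 and 17238 in WT, and 15826 and 15869 in G34W. KRT7, a type II keratin of ductal and glandular epithelia, was 17797 in EV2, 12355 and 22167 in WT, and 16621 and 12308 in G34W. For all 3 genes the WT values enclosed, or overlapped with, those of G34W, and WT2 was above WT1.

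Per kilobase of transcript, the mean over the 5 libraries was 16658 for KRT18, 9999.8 for KRT7 and 9510 for KRT8, so that KRT18 was the most abundant on this scale too. Summed per kilobase over the 28 type I and the 25 type II genes, the ratio of type II to type I was 1.24 in EV2, 0.954 and 1.04 in WT, and 1.14 and 1.04 in G34W. The chain types were thus present at near-equal levels in each library. Their ratio, not their level, was highest in EV2, and it overlapped between WT and G34W. On the same scale the type I and type II keratins together came to 55.9% of the level of VIM in EV2, 48.1% and 42.5% in WT, and 71.2% and 49.8% in G34W.

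KRT8 and KRT18 have many processed pseudogene copies, and 61.1% and 76.8% of the 31-base words in their transcripts also occur in transcripts of other genes. Values of the pair therefore depend on how the authors' quantification shared such reads out. The 50 rows named as KRT8 pseudogenes summed to between 310 and 486 per library and the 67 rows of KRT18 pseudogenes to between 74.2 and 160.5, small beside the parent genes. KRT7 shared 15.5% of its words, most of them with its antisense gene, and reads from these 2 can be told apart only by strand, which the quantification is not stated to have used.

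KRT19, a type I keratin without the usual tail domain, had a mean of 501 per kilobase, far below these. Its signal was 331 in EV2, 296 and 687 in WT1 and WT2, and 1411 and 757 in G34W1 and G34W2. Both G34W libraries were above both WT libraries, but WT2 and G34W2 lay close together and the highest value was that of G34W1, the library with high epithelial and pluripotency markers. The part of those markers in the KRT19 difference was not tested. The log2 fold change of G34W against WT was 1.20 (SE 0.463), and 0.75 without G34W1. As a share of the KRT18 signal, not corrected for length, KRT19 was 1.32% in EV2, 1.38% and 2.35% in WT, and 6.54% and 3.71% in G34W.

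KRT23 was near the limit of what was seen, at 3.93 in EV2, 0.888 and 12.1 in WT, and 0.378 and 4.42 in G34W, with the replicates far apart. KRT20, typical of intestinal epithelium, was listed at 0 in all 5 libraries.

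In the stratified class, KRT17 and KRT80 were the most abundant, with means of 693 and 167.5 per kilobase. KRT17, a type I keratin induced in injured or activated skin, was 798 in EV2, 1283 and 1303 in WT1 and WT2, and 480 and 1394 in G34W1 and G34W2. The WT libraries agreed closely, while the G34W libraries lay on either side of them. KRT80, a type II keratin found in many epithelia, was 710 in EV2, 502 and 648 in WT, and 469 and 915 in G34W, again with G34W1 lowest and G34W2 highest.

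KRT10, the type I keratin of differentiating suprabasal keratinocytes, was 100.7 in EV2, 64.8 and 153.6 in WT, and 239 and 121 in G34W. Its highest value was in G34W1 and the groups overlapped. The log2 fold change of G34W against WT was 0.76 (SE 0.589), and 0.28 without G34W1. The part of the G34W1 markers in it was not tested. KRT1, the usual type II partner of KRT10, was listed at 0 in all 5 libraries.

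KRT15, a type I keratin of basal cells and of the follicle bulge, was 63.9 in EV2, 64.4 and 131.7 in WT, and 64.1 and 54.6 in G34W. Although both G34W libraries were below both WT libraries, WT1, EV2 and G34W1 were practically equal, and only WT2 was raised. KRT79, a type II keratin of the upper hair follicle, was 36.5 in EV2, 18.5 and 62.9 in WT, and 20.3 and 15.7 in G34W, with overlapping groups.

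The remaining stratified keratins were close to the lower limit. KRT14 was 7.07 in EV2, 12.6 and 8.24 in WT, and 11.6 and 12.9 in G34W, and its partner KRT5 was 4.998 in WT1 and listed at 0 in the others. KRT16 was 3.47 in EV2, 4.06 and 0 in WT, and 16.2 and 1.44 in G34W. KRT76 was 12.2 in WT1 and listed at 0 elsewhere. KRT14, KRT16 and KRT17 are close paralogues with pseudogene copies and shared 46.8%, 39.1% and 39.8% of their 31-base words with other genes, so the low values of KRT14 and KRT16 are uncertain beside KRT17.

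KRT34, a type I keratin of the hair cortex, was the only hair keratin above 100 in any of the 5 libraries. It was 251.8 in EV2, 507 and 716 in WT1 and WT2, and 227 and 197 in G34W1 and G34W2. Both WT libraries were thus above both G34W libraries, and EV2 lay beside the G34W libraries. The means were 611 ± 147.5 (SD, n = 2) in WT and 212 ± 20.9 (SD, n = 2) in G34W. Its signal was 2.37% and 2.45% of that of KRT18 in WT, 1.004% in EV2, and 1.05% and 0.966% in G34W. It shared 23.4% of its 31-base words with other genes, most of all with KRT33B (13.5%), which was itself listed at 0 in all 5 libraries.

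**Figure D2:**
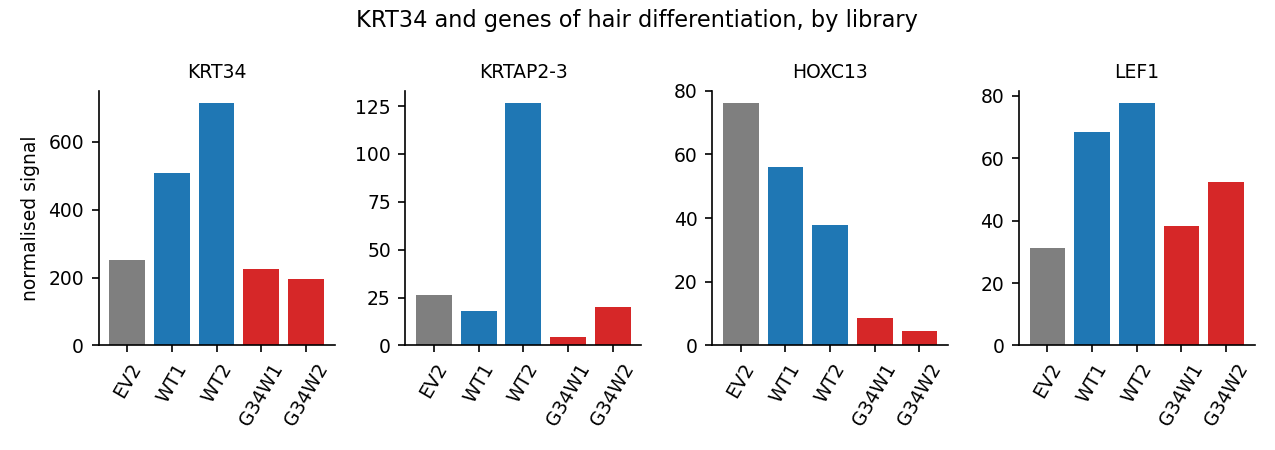
Normalised signal of KRT34, KRTAP2-3, HOXC13 and LEF1, with 1 bar for each of the 5 libraries and axes that start at 0. KRT34 is highest in WT1 (507) and WT2 (716), while HOXC13 is lowest in G34W1 (8.70) and G34W2 (4.55).

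KRT34 (ENSG00000131737) lies within the type I keratin cluster at chr17:41377669-41383816 (RefSeq, GRCh38.p14, minus strand). Its nearest keratin neighbours are KRT33B, 7855 bases away, and KRT31, 9904 bases away, and both were listed at 0 in all 5 libraries. KRT33A, KRT37 and KRT38, the next in the row, were listed at 0 as well. Of the 28 keratins on chromosome 17, 11 were at 0 in all 5 libraries and 9 reached 10 in at least 1. The hair keratins KRT32, KRT36 and KRT39, also on this chromosome, did not pass 9.67.

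**Figure D3:**
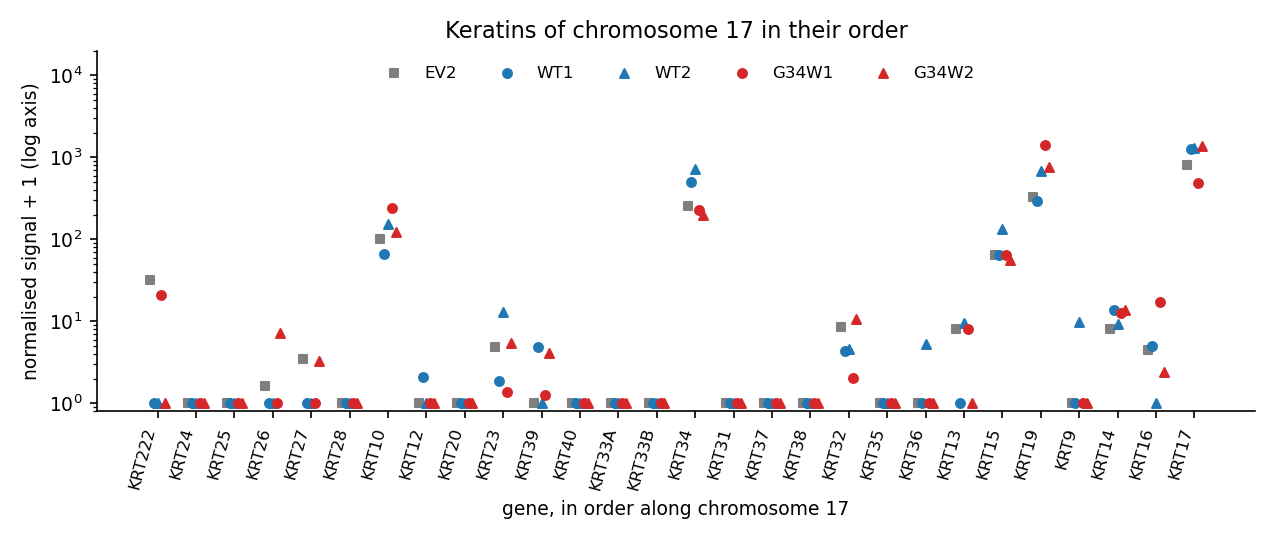
Normalised signal plus 1 (log axis) of the 28 keratins on chromosome 17, in gene order and not to scale, with 1 point per library. KRT34 stands above its neighbours KRT33A, KRT33B, KRT31, KRT37 and KRT38, which are listed at 0 in all 5 libraries, and KRT15, KRT19 and KRT17 lie further along.

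The sequences before the starts of KRT34 and of 3 neighbouring paralogues are shown to set the hair keratin with signal beside those listed at 0. Each run is the 250 bases before the start of the RefSeq transcript (GRCh38.p14), read 5′ to 3′ on the minus strand, with the letters TATAAA and TTTATG in capitals where they occur on either strand. The windows are chr17:41382307-41382556 for KRT34, chr17:41350829-41351078 for KRT33A, chr17:41369814-41370063 for KRT33B and chr17:41397609-41397858 for KRT31. The start used for KRT34 lies 1510 bases inside the annotated gene, so its window overlaps the gene's longer annotated form.
KRT34: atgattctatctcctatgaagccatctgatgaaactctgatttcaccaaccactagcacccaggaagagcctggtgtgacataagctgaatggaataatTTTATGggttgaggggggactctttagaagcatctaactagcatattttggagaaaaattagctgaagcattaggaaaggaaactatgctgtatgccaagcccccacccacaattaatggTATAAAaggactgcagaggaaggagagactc
KRT33A: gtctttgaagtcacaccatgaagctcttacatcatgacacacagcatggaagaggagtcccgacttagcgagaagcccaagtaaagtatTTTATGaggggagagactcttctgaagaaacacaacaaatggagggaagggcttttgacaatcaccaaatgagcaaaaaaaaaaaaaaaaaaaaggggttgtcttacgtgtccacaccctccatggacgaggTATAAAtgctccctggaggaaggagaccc
KRT33B: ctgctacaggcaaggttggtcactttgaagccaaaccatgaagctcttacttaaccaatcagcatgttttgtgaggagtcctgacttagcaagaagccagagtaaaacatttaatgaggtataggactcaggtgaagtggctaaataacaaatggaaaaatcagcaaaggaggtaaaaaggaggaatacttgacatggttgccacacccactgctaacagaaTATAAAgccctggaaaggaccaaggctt
KRT31: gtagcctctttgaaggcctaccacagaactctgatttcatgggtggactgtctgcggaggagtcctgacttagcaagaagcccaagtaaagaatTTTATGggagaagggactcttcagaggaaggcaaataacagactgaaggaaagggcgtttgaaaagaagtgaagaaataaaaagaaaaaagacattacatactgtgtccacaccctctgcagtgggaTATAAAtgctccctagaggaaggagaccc

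TATAAA, the core letters of a TATA box, stood 31 bases before the start in KRT34, 29 in KRT33A, 28 in KRT33B and 29 in KRT31, counted from its first letter, so KRT34 and the neighbours listed at 0 share it at nearly the same place. It occurred on either strand in 10.7% of 35116 promoter windows of this length, and in 20 of the 34 keratins with a window in that table. TTTATG, chosen after the sequences had been seen, stood 151 bases before the start in KRT34, 161 in KRT33A and 156 in KRT31, and was not found in KRT33B. It occurred in 9.64% of all windows and in 17 of the 34 keratin windows. The 2 motifs do not overlap in these 4 windows. Aligned from end to end, the KRT34 window matched that of KRT33B at 162 of 276 alignment columns, KRT31 at 160 of 273 and KRT33A at 154 of 282. These matches describe the letters only.

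KRT81, a type II hair keratin, was 23.3 in EV2, 10.7 and 30.5 in WT1 and WT2, and 9.26 and 10.4 in G34W1 and G34W2. WT1 was level with the G34W libraries, and WT2 and EV2 were higher. KRT81 shared 53.2% of its 31-base words with other genes, chiefly KRT86 (43.2%), so its value is uncertain. Of the 16 hair keratins 8 were listed at 0 in all 5 libraries, and the 6 that were above 0 but under 10 reached between 2.22 and 9.67 in their highest library.

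The 9 root sheath keratins stayed under 10 in each library, 4 of them at 0 throughout, and the highest value was 6.25 for KRT26 in G34W2. KRT222, a keratin-like gene at the edge of the chromosome 17 cluster, was 31.2 in EV2, 0 and 0 in WT, and 20.0 and 0 in G34W. It shares 36.7% of its 31-base words with 1 other gene. Its mean of 10.2 passed the filter described below through EV2 and G34W1 alone, so it counts among the keratins tested.

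Summed by class, the simple epithelial keratins came to 64751 in EV2, 48394 and 69346 in WT1 and WT2, and 55419 and 49364 in G34W1 and G34W2. The stratified keratins summed to 1730 in EV2, 1976 and 2327 in WT, and 1310 and 2523 in G34W. The hair keratins summed to 287 in EV2, 534 and 754 in WT, and 242 and 224 in G34W. In the first 2 classes the lines overlapped, whereas the hair class separated WT from the other 3 libraries. That separation was carried by KRT34, which held 87.7% of the class sum in EV2, 94.9% in WT1 and WT2, and 93.5% and 88.1% in G34W. Without KRT34 the hair keratins summed to 35.2 in EV2, 27.3 and 38.5 in WT, and 15.7 and 26.6 in G34W.

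**Figure D4:**
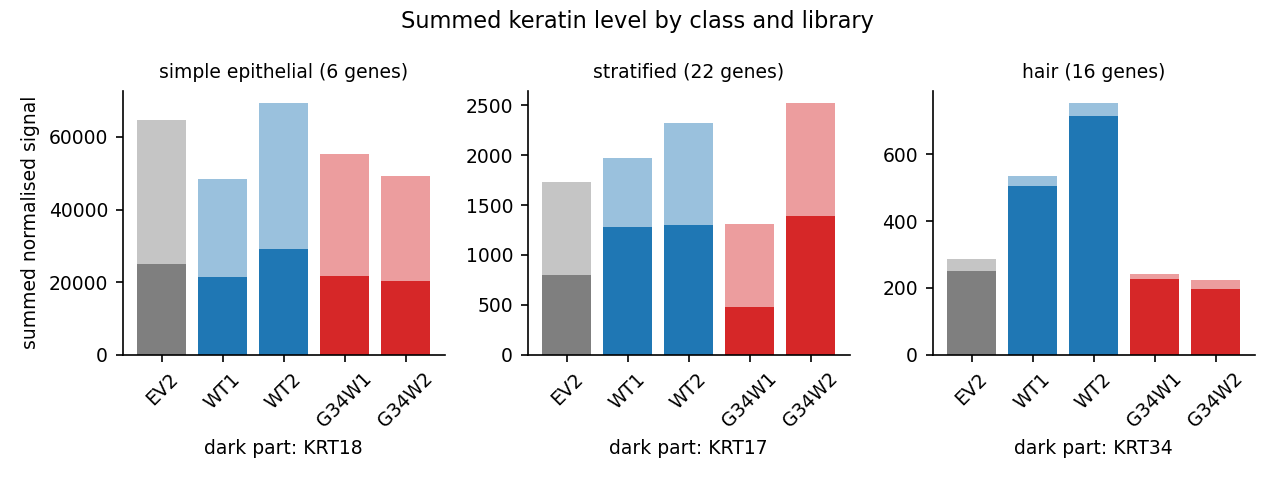
Summed normalised signal of simple epithelial, stratified and hair keratins, with 1 bar per library, axes from 0 and the most abundant gene of each class as the dark part. Hair keratins sum to 534 and 754 in the WT libraries and to at most 287 in the others, nearly all of it KRT34.

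The comparison of G34W with WT asks what the mutation adds to expression of the histone itself. limma was fitted on log2(value + 1) of the 16259 genes with a mean of at least 10 over the 5 libraries, 13 of which were keratins. No gene passed an adjusted p of 0.05 (0%), while 439 genes, 265 higher and 174 lower in G34W, had an unadjusted p under 0.05. Without G34W2 the count of genes called was 13, without WT1 it was 6 and without WT2 it was 1. None of the 13 keratins was called, either in the fit of 5 libraries or with any 1 of them left out, and 2 of them, KRT34 and KRT19, had an unadjusted p under 0.05. For KRT34 this held under each alternative run except the fit that includes EV replicate 1. For KRT19 it was lost there too, and also without G34W1, without WT1, with 1 prior variance for all genes and without the filter on low values.

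KRT34 was lower in G34W by a log2 fold change of -1.505 (SE 0.363, adjusted p = 0.9998, limma), and it ranked 13 of 16259 genes by p. On this scale the G34W level was 0.352 of the WT level. The difference was kept with each library left out in turn, between -1.75 without WT1 and -1.26 without WT2, and was -1.60 without G34W1. KRT19 was higher in G34W by 1.196 (SE 0.463, adjusted p = 0.9998, limma), ranked 239, and ranged from 0.59 without WT1 to 1.80 without WT2.

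The other keratins gave differences that were small beside their errors or rested on 1 library. KRT8 was nearly level at 0.01 (SE 0.247), KRT18 was -0.25 (SE 0.268) and KRT7 -0.21 (SE 0.327). KRT17 was -0.66 (SE 0.451), turned to 0.11 without G34W1 and was -1.43 without G34W2. KRT222 was 2.20 (SE 2.236), and 4.39 without G34W2. KRT15 was -0.63 (SE 0.606), and -0.12 without WT2. KRT81 was -0.83 (SE 1.076) and -0.12 without WT2. KRT79 was -0.91 (SE 0.907), -0.05 without WT2 and -1.76 without WT1.

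Of the 13 keratins, 6 were higher and 7 lower in G34W than in WT, with a median log2 fold change of -0.21 against -0.06 over all genes tested. This median was -0.48 without WT1 and 0 without G34W1. With KRT222 left out, 5 were higher and 7 lower, with a median of -0.23. The groups of 2 libraries did not overlap for 4 keratins. KRT19 was higher in both G34W libraries, beside 11.6% of all genes tested in that direction, and KRT34, KRT15 and KRT81 were lower, beside 14.7%. After each library was rescaled to a common median ratio, KRT15 overlapped and 3 keratins were apart, 1 higher and 2 lower, beside 14.2% and 14.1% of all genes. With G34W1 left out, 10 of the 13 did not overlap, beside 55% of all genes tested; the choice to leave it out was made after seeing the data.

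The comparison with EV2 asks which line departs from the vector control. EV is a single library here and was assumed to vary like the others. In G34W against EV2, 0% of the 16259 genes were called by limma and 317 had an unadjusted p under 0.05, and in WT against EV2, 0% were called and 157 had an unadjusted p under 0.05. Without WT1, 3 genes were called in WT against EV2. None of the 13 keratins was called in either comparison, and 1 in each, KRT19 and KRT34 respectively, had an unadjusted p under 0.05.

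KRT34 was 1.255 higher in WT than in EV2 (SE 0.445, ranked 58), and -0.25 in G34W against EV2 (SE 0.445). EV2 thus lay nearer to G34W than to WT. The 3 comparisons share libraries, and KRT34 passed the threshold in none of them. Both WT libraries were above EV2 and both G34W libraries for KRT34 and KRT15, as they were for 8.34% of all genes tested. KRT19 was 1.64 in G34W against EV2 (SE 0.567, ranked 92), 1.19 without G34W1 (SE 0.694, ranked 922), and 0.45 in WT against EV2 (SE 0.567). KRT8 was highest in EV2, with differences of -0.44 in G34W (SE 0.303) and -0.45 in WT (SE 0.303) against EV2. The plot of fold changes sets the 3 comparisons side by side.

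**Figure D5:**
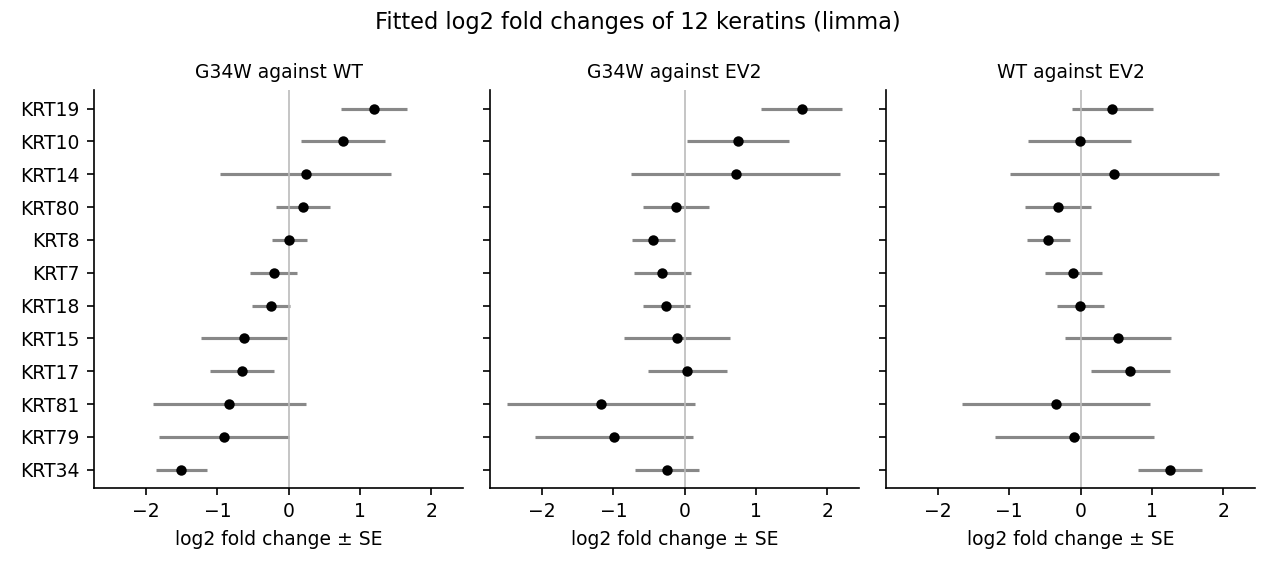
limma log2 fold changes of 12 keratins on the log2(value + 1) scale (x axis) in 3 comparisons, with bars for the standard error; KRT222 is left out because it was listed at 0 in 3 of the 5 libraries. KRT34 stands at -1.505 in G34W against WT, at -0.25 in G34W against EV2 and at 1.255 in WT against EV2.

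The 2 libraries of a line were also compared with each other. WT2 was above WT1 for 11 of the 13 keratins (84.6%), against 58.7% of all genes tested, and 6 of the 13 (46.2%) differed by over 1.5-fold between WT1 and WT2, against 30.9% of all genes. The ratio of WT2 to WT1, from values plus 1, was 3.28 for KRT79, 2.69 for KRT81, 2.35 for KRT10, 2.32 for KRT19 and 2.03 for KRT15. For KRT34 it was 1.41. Between the G34W libraries 5 of the 13 differed by over 1.5-fold (38.5%), against 34.6% of all genes. Here G34W2 was above G34W1 for 5 of the 13 (38.5%), against 65.4% of all genes. The ratio of G34W2 to G34W1 was 2.90 for KRT17 and 1.95 for KRT80, but 0.537 for KRT19 and 0.509 for KRT10, and KRT222 was 20.0 in G34W1 and listed at 0 in G34W2.

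Genes tied to hair keratin expression were examined next. Of the 111 keratin-associated protein genes, 96 were listed at 0 in all 5 libraries, and KRTAP2-3 alone reached 10. It was 26.2 in EV2, 17.8 and 126.8 in WT1 and WT2, and 4.61 and 19.9 in G34W1 and G34W2, so that WT1 and G34W2 overlapped. The RNA of the matrix proteins that accompany hair keratins in the hair shaft was thus largely absent from libraries with KRT34.

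Of 8 regulators of hair keratin genes or of the follicle, 5 were tested and limma called 0 in G34W against WT, with 1 (HOXC13) at an unadjusted p under 0.05. VDR, the vitamin D receptor, which is also expressed in bone cells, was 1615 in EV2, 1038 and 1933 in WT, and 1338 and 1545 in G34W. GATA3 was 60.8 in EV2, 52.2 and 200.4 in WT, and 52.0 and 70.0 in G34W. For both the groups overlapped. LEF1, a nuclear effector of Wnt signalling, was 31.2 in EV2, 68.4 and 77.9 in WT, and 38.4 and 52.4 in G34W. WT thus lay above the other 3 libraries, as for KRT34 and for 8.34% of all genes tested. The log2 fold change of LEF1 in G34W against WT was -0.69 (SE 0.64), small beside its error.

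HOXC13, a homeobox factor that activates hair keratin genes, was singled out after its values had been seen. It was 76.2 in EV2, 56.1 and 37.9 in WT, and 8.70 and 4.55 in G34W. The log2 fold change was -2.68 in G34W against WT (SE 0.879, ranked 99) and -3.40 in G34W against EV2 (SE 1.077, ranked 55). Without G34W1 these were -3.09 and -3.80. HOXC13 was therefore low in G34W, as KRT34 was, but highest in EV2, where KRT34 was not. FOXN1 was listed at 0 in all 5 libraries.

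The other intermediate filament genes included the most abundant filament gene, VIM, with a mean of 73556 per kilobase. VIM was 161866 in EV2, 145103 and 233828 in WT, and 109267 and 142133 in G34W. LMNA and LMNB2, which encode nuclear lamins, were next. limma called 0 of the 14 genes tested in G34W against WT, with 2 lower at an unadjusted p under 0.05. The median log2 fold change of the 14 was -0.27 in G34W against WT, beside -0.06 over all genes. NES and DES, named after their values had been seen, had the lowest p of the list, at -1.04 (SE 0.349) and -1.31 (SE 0.494). Without G34W1 they were -0.56 and -0.61, and neither had an unadjusted p under 0.05. NES was 11862 in EV2, 9565 and 13917 in WT, and 4005 and 7823 in G34W, so both G34W libraries were below the other 3.

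Desmosomes anchor keratin filaments at cell contacts, and plakins link filaments to them. Of 17 such genes 13 were tested and limma called 0, with 3 higher and 0 lower in G34W against WT at an unadjusted p under 0.05. PLEC, the most abundant, was 28226 in EV2, 19088 and 32782 in WT, and 13567 and 17973 in G34W. DST was 7446 in EV2, 9085 and 8345 in WT, and 5114 and 7446 in G34W. Both plakins were thus lower in the G34W libraries than in the WT libraries. The plakin DSP was so too, at 5360 in EV2, 3879 and 4911 in WT, and 2546 and 3635 in G34W. Its log2 fold change was -0.52 in G34W against WT (SE 0.275) and -0.82 in G34W against EV2 (SE 0.336). PPL, another plakin, overlapped between the lines. Of the 13 genes, 4 (PLEC, DST, DSP and PKP3) were lower in both G34W libraries, beside 14.7% of all genes tested. The 5 that were higher in both (DSG2, DSC2, PKP2, PKP4 and JUP) stood beside 11.6%.

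DSG2, a desmosomal cadherin, was 5193 in EV2, 3768 and 4283 in WT, and 7349 and 5188 in G34W, with a log2 fold change of 0.62 in G34W against WT (SE 0.264). DSC2 (1.14, SE 0.367) and PKP2 (1.21, SE 0.419), named after their values had been seen, were higher too. All 3 were highest in G34W1, at 7349, 785 and 849, beside the epithelial markers given above, whose part in them was not tested. Without G34W1 the log2 fold changes were 0.37 for DSG2, 0.93 for DSC2 and 0.69 for PKP2, and none of the 3 had an unadjusted p under 0.05.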

How the data were processed

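Poly(A) RNA was sequenced in 6 libraries. The authors ran kallisto against Ensembl transcripts (GRCh38), summed the estimates to genes and scaled them in DESeq2. The deposited unit is this normalised signal, not counts. Some low values of a library were whole multiples of a common step, such as 0.6248, 1.25 and 2.499 in EV2. Others were not, such as 3.93 for KRT23 in EV2. Reads were therefore not recovered, depth was not estimated and no count test was run. limma 3.58.1 (R 4.3.3) was fitted on log2(value + 1) of 5 libraries with a variance trend, 2 residual degrees of freedom and Benjamini-Hochberg adjustment at 0.05, for genes with a mean of at least 10. Fold changes on this scale understate those of low genes. The fit was tested on simulated data in which libraries varied independently and none stood apart as G34W1 does. That test therefore does not show which changes the fit can find in these libraries. Keratins with a value of at least 10 in any of 5 libraries were named, as were the 3 genes of each other list with the highest mean over those libraries. Members and lists were chosen with earlier results of these data known. Transcript lengths and 31-base words came from GENCODE transcripts on GRCh37, matched by gene identifier; coordinates and promoter windows came from RefSeq on GRCh38.p14. Alternatives were other filters, pseudocounts, scaling, variance priors, a replicate block and libraries left out. Figures were drawn with matplotlib 3.10.9.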

Additional observations from a re-analysis of the deposited data

Results flagged for a closer look

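EV replicate 1, which was left out of the main fit, held values above those of EV2 for 13 keratins on chromosome 12 and 1 on chromosome 17. In 6 of them EV2 was itself at least 10. KRT18 was 658439 in it, KRT8 was 528776 and KRT7 was 437329. KRT80 was 12756, KRT79 was 503 and KRT81 was 111.4. In the others EV2 was at most 2.50. KRT4 was 149.5 in EV replicate 1, KRT5, KRT71 and KRT74 were 81.5 each, KRT6C was 67.9, KRT84 was 54.4 and KRT83 was 27.2. These are small whole multiples of 13.59, the value of L1TD1 in this library, so low values moved in coarse steps. In EV2 the values of the listed genes went down to 0.6248. KRT26, the gene on chromosome 17, was 108.7. Of the 28 keratins on chromosome 17 only 1 was above 0 in this library, against 13 of the 26 on chromosome 12. Among all genes, 19.7% of those on chromosome 17 and 56.9% of those on chromosome 12 were above 0 in it. Within the library the ratio of KRT8 to KRT18 was 0.803 and that of KRT7 to KRT18 was 0.664, beside 0.859 and 0.710 in EV2. High values in this library were not particular to keratins: it summed to 157595150 over all genes, against 41985190 in EV2. On chromosome 12, 50.5% of 1290 genes were above EV2, and the median ratio to EV2 was 22.6 among genes above 0 in EV replicate 1 and at least 10 in EV2. On chromosomes 10 and 11 these values were 61.0% of 1170 genes and 23.6, and 56.9% of 1731 genes and 23.7. On chromosome 17, 3.74% of 1419 genes were above EV2 and the same median was 0.0699. Of all 35639 genes 10.7% were above EV2, with a median of 0.697.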

How the results depend on the processing

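In G34W against WT none of the keratins tested was called under any alternative run, and the count of genes called was 0 with each other filter, pseudocount, scaling and variance prior. The filter at a mean of at least 50 left KRT14, KRT79, KRT81 and KRT222 untested. With a pseudocount of 0.1, 1 gene was called in G34W against EV2 and 1 in WT against EV2. With 1 library left out, counts ranged from 0 to 13 in G34W against WT, stayed at 0 in G34W against EV2 and ranged from 0 to 3 in WT against EV2; the lone library of a group was then assumed to vary like the others. The replicate block called 0 genes in each comparison, and 715, 275 and 369 genes had an unadjusted p under 0.05 in G34W against WT, G34W against EV2 and WT against EV2. No source used here says that the numbers mark a shared batch or day, and deviations of same-numbered libraries correlated at 0.095 across genes. Including EV replicate 1 also called 0 genes. The keratin median ranged from -0.479 to 0 with 1 library left out. The number of keratins whose groups do not overlap ranged from 6 to 10 of 13, in leave-outs chosen after seeing the data. The counts were 10 without G34W1, 8 without G34W2, 9 without WT1 and 6 without WT2, beside 55%, 73.4%, 65.8% and 57.9% of all genes tested. With 1 library left out, direction turned for KRT8 (-0.121 without WT1, up to 0.142), KRT7 (0.211 without WT2 and 0.006 without G34W2, down to -0.632), KRT14 (-0.041 without WT2, up to 0.518), KRT17 (0.108 without G34W1, down to -1.426) and KRT80 (-0.283 without G34W2, up to 0.68). For KRT222 the difference was 0 without G34W1, when all WT and G34W values left were 0, and at most 4.39 otherwise. The cause was not tested. Rescaling moved the median of all genes by 0.069 and turned no keratin. The depth was not estimated, so precision rests on 5 libraries, and values under 10 carry little information.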
